A study of Homo sapiens with 54 samples.

Results

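Collagen genes encode the chains of the collagens, the main structural proteins of the extracellular matrix. A gene was taken as a member when the RefSeq accession of a probe mapped to a symbol made of COL, a type number, the letter A and a chain digit, such as COL1A1, COL3A1 or COL4A1. The rule found 44 of the 19720 genes with a RefSeq name on the array. Each gene was read from its brightest probe by the mean of all arrays, so no difference between cultures entered the choice.

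A collagen molecule is a trimer of alpha chains wound into a triple helix, and its chains may come from a single gene or from several. Fibrillar collagens form the fibres of bone, skin and cartilage, type IV chains form the network of basement membranes, and other classes link fibrils, span the cell membrane or anchor epithelia. Undifferentiated human pluripotent stem cells grow as an epithelial sheet that rests on matrix, while fibroblasts, cartilage and other mesenchymal tissues are known for large collagen output.

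The study asked whether FGFC, a chimeric protein made from FGF1 and FGF2, can take the place of bFGF (FGF2) in the culture of human embryonic stem cells (ESCs) and induced pluripotent stem cells (iPSCs). RNA from 27 cultures was measured on 54 single-colour Agilent arrays, and the 2 arrays of each culture were averaged. H1 ESCs in E8 Medium, which is feeder-free and holds 2 ng/mL TGF-beta 1, gave a pre-culture and, after 4 days, a culture with 100 ng/mL bFGF, another with 100 ng/mL FGFC and another with no FGF, in each of 3 experiments. In each of 5 systems, 1 pre-culture, 1 long-term bFGF culture and 1 long-term FGFC culture were measured. These systems were H1 in E8 Medium for 30 days at 100 ng/mL, H1 in medium conditioned by mouse embryonic fibroblasts (MEF-CM) for 41 days at 5 ng/mL, and KhES-1 ESCs on MEF feeder cells for 30 days at 5 ng/mL. The other 2 were 201B7 iPSCs on MEF feeder cells for 50 days at 10 ng/mL and 253G1 iPSCs in E8 Medium for 36 days at 100 ng/mL. A last H1 culture was labelled as differentiated, with 0 ng/mL FGF and with neither time nor medium in its label. By the study's description such cells were grown in E8 Medium and then differentiated through embryoid bodies. Each system is 1 line and each long-term arm 1 culture, and the pre-culture of H1 in E8 Medium used beside the 30-day arms was that of experiment 1. The labels give passage 49 for the pre-culture of experiment 2 and passage 59 for its 4-day cultures.

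Levels are log2 processed signals minus the 75th percentile of the array, so a level of 0 lies at that percentile. Probes differ in response, so a level was compared between cultures and not between genes. The 75th percentile signal ran from 182 to 913 over the 54 arrays (median 670.5), with the pre-culture of 201B7 at 182 and 234. The scanner marked 56.2% to 79.2% of probes as well above background (median 67.45%). Of the 44 collagen genes, 27 were well above background on all 54 arrays, 16 on some and 1, COL19A1, on none. Among the fibrillar genes 7 of 11 were well above background on all arrays, and among the network-forming genes 6 of 9. The counts were 2 of 5 for the beaded filament class, 7 of 10 for collagens associated with fibrils, 2 of 4 for transmembrane collagens, 1 of 2 for multiplexins and 2 of 3 for the rest. COL1A1 and COL4A1 were well above background on 54 arrays, but COL3A1 on 5 of 54, so the signal of COL3A1 in undifferentiated cells lay near background. In bulk samples fewer cells of a type and less RNA per cell cannot be told apart. The p-values below come from limma and measure only the spread between these cultures, which may be technical.

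The chains of type I collagen, the fibre of bone, skin and tendon, had their lowest levels in H1 cells in E8 Medium. COL1A1 ran from 1.24 to 4.89 over the 23 undifferentiated cultures with FGF (median 2.85). In the 3 H1 pre-cultures in E8 Medium COL1A1 stood at 1.81, 2.15 and 1.66. Its levels were 3.71, 4.00 and 4.09 in MEF-CM, for pre-culture, bFGF and FGFC in that order. On feeder cells, COL1A1 gave 2.85, 3.35 and 3.13 in KhES-1 and 4.89, 4.11 and 3.81 in 201B7. In 253G1 cells it gave 2.89, 3.64 and 3.88. The highest COL1A1 level in H1 cells in E8 Medium was 2.76, in an FGFC culture of 4 days, below the lowest level of any other system. COL1A2, the partner chain of COL1A1, ran from 1.27 to 3.93 (median 2.42) and H1 cells in E8 Medium overlapped with KhES-1 and 253G1 cells. The differentiated culture reached 6.10 for COL1A1 and 6.04 for COL1A2, above all 26 other cultures.

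COL3A1, the chain of type III collagen of vessels and soft tissue, lay between -8.28 and -5.12 in the undifferentiated cultures with FGF and at 3.07 in the differentiated culture. COL5A1 and COL5A2 are chains of type V collagen, which starts type I fibrils and sets their width. COL5A1 ran from -0.43 to 0.95 with FGF, and the differentiated culture stood at 4.98. COL5A2 was highest among undifferentiated cultures in MEF-CM, at 3.72, 3.20 and 4.07, next to 1.63, 1.65 and 1.02 in the H1 pre-cultures in E8 Medium. COL2A1, the main fibre chain of cartilage, was at -2.58, -2.28 and -2.26 in KhES-1 and at -2.37, -2.16 and -2.03 in 201B7. The H1 pre-cultures in E8 Medium had COL2A1 at 0.61, 0.31 and -0.12, so the feeder cultures lay below them with no overlap.

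**Figure D1:**
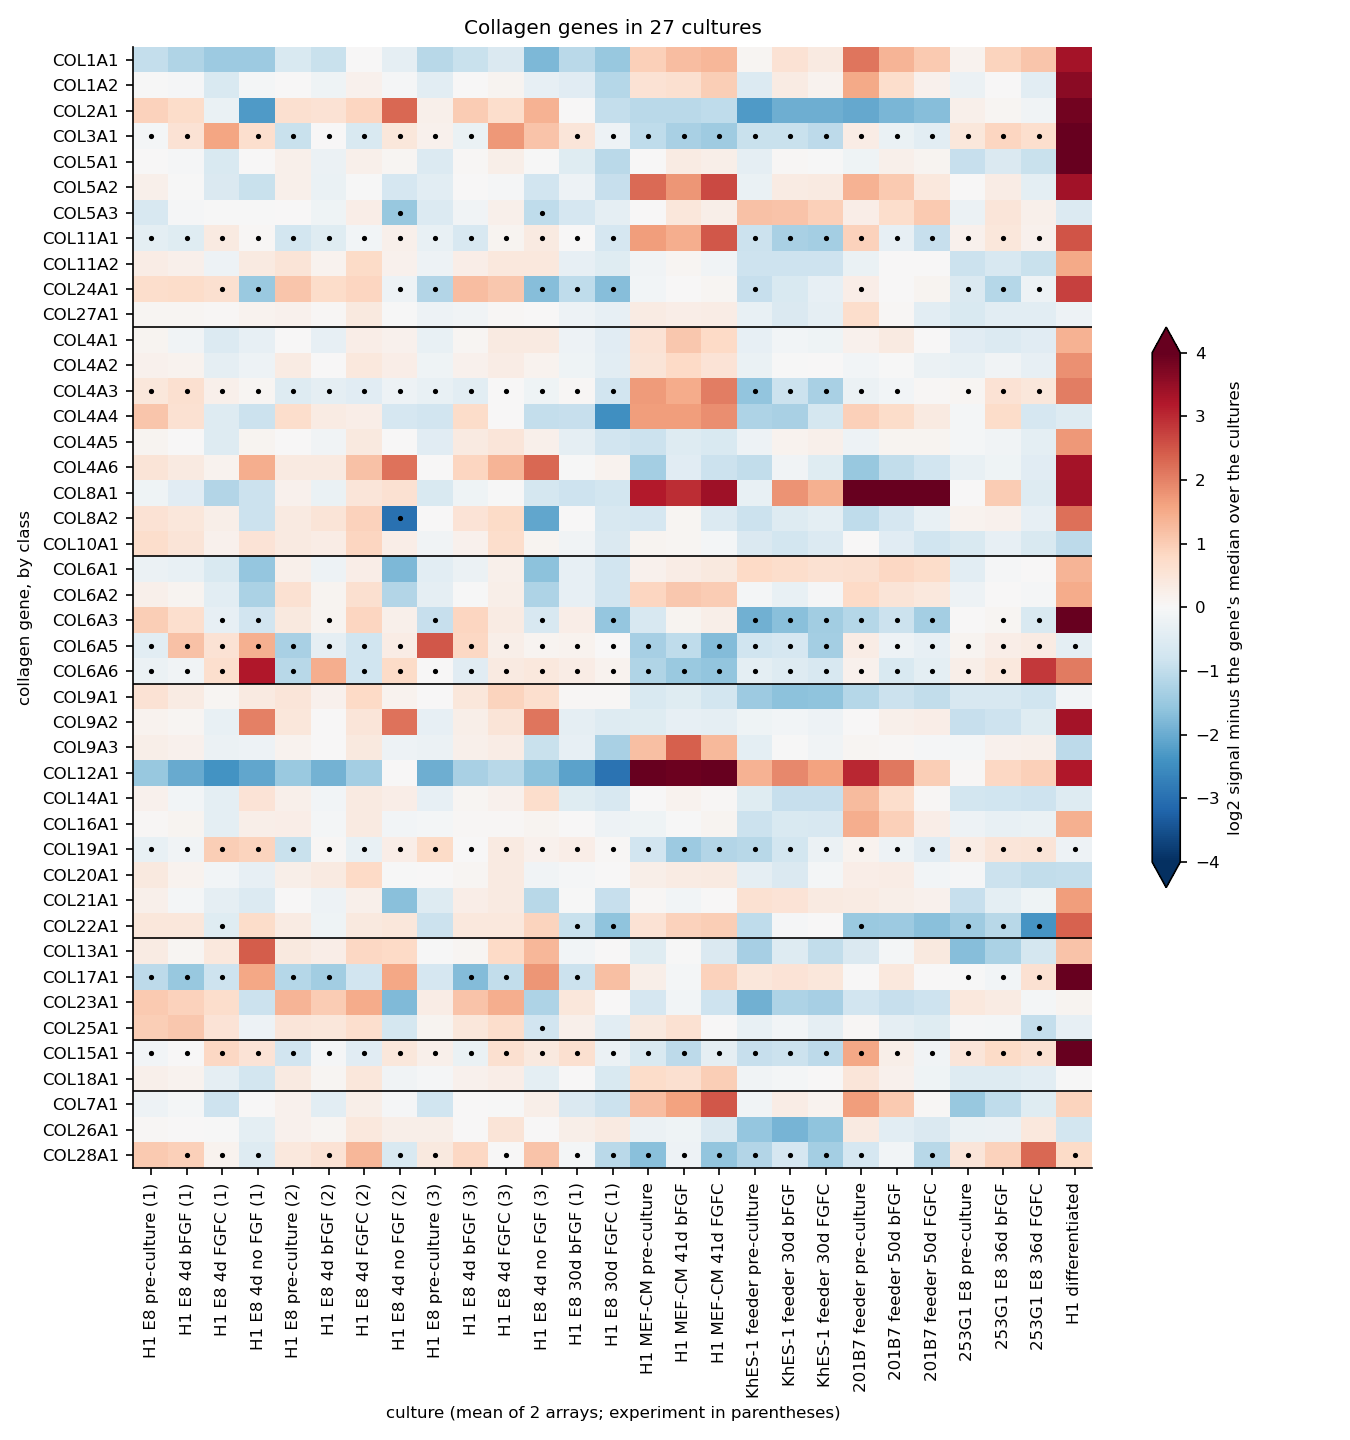
Levels of the 44 collagen genes in the 27 cultures, each colour the log2 level of the culture minus the median of the gene over the cultures, and a dot where neither array of the culture was well above background. COL12A1 is highest in MEF-CM, where it reached 4.41, COL8A1 in 201B7 (3.52), and the differentiated culture is the highest for COL1A1 (6.10) and COL3A1 (3.07).

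Type IV collagen is the network of basement membranes, and its 6 genes lie in 3 pairs that face away from each other, COL4A1 with COL4A2 on chromosome 13, COL4A3 with COL4A4 on chromosome 2 and COL4A5 with COL4A6 on chromosome X. COL4A1 ran from 0.64 to 2.25 over the undifferentiated cultures with FGF (median 1.09), and COL4A2 from 3.74 to 4.96. Both genes had their highest undifferentiated levels in MEF-CM, where COL4A1 read 1.78, 2.25 and 2.00 and COL4A2 4.69, 4.96 and 4.72. In COL4A6 the systems separated more, with 1.56, 1.38 and 1.03 in the H1 pre-cultures in E8 Medium and -0.49, 0.05 and 0.27 in 201B7. COL4A5, which shares its start region with COL4A6, read 1.96, 1.86 and 1.42 in those pre-cultures and 1.65, 1.97 and 1.96 in 201B7. COL4A5 thus overlapped between these groups while COL4A6 did not. COL4A3 was well above background on 8 of 54 arrays, and its partner COL4A4 was brightest in MEF-CM, at -0.60, -0.61 and -0.42.

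The promoters of the type IV genes are printed because each pair is read from a shared start region. They are the RefSeq sequences, 300 bases each, on build GRCh38.p14, 5' to 3' on the strand of the gene. Capitals mark any of 3 words, searched on both strands. These are CCAAT, which reads ATTGG from the other strand, the word GGGCGG, which reads CCGCCC from the other strand, and the word TATAAA, which reads TTTATA from the other strand. The windows are COL4A1 at chr13:110307108-110307407 on the minus strand and COL4A2 at chr13:110307034-110307333 on the plus strand. The other pairs are COL4A3 at chr2:227164374-227164673 on the plus strand with COL4A4 at chr2:227164156-227164455 on the minus strand, and COL4A5 at chrX:108439588-108439887 on the plus strand with COL4A6 at chrX:108439409-108439708 on the minus strand.
COL4A1: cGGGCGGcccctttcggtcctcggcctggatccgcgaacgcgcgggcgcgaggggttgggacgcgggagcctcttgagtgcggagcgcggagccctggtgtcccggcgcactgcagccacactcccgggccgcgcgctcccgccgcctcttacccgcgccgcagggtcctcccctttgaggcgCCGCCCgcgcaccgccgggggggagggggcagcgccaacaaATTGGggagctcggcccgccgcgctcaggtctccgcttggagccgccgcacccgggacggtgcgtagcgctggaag
COL4A2: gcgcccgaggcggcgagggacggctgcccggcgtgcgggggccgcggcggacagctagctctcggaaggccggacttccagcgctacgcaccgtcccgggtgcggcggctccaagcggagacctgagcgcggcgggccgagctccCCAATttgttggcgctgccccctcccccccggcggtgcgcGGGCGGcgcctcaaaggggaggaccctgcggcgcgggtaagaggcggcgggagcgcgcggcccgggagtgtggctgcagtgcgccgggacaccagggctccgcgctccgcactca
COL4A3: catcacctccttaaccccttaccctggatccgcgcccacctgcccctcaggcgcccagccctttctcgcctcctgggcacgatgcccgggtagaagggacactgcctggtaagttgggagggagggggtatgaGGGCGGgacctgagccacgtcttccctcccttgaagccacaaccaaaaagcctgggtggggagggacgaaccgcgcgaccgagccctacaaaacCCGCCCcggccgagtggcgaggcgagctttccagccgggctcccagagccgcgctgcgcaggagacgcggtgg
COL4A4: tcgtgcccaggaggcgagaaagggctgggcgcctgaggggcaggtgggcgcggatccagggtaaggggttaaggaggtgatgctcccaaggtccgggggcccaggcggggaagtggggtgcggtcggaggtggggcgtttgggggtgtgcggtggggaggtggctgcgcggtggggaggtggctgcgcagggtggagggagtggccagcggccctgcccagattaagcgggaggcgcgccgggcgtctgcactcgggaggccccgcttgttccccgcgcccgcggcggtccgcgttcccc
COL4A5: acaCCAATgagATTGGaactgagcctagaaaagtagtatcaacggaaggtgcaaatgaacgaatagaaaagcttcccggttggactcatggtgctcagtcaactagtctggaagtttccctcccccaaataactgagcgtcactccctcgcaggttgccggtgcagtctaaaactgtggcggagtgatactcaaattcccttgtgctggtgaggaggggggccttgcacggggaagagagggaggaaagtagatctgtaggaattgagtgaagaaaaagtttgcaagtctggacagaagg
COL4A6: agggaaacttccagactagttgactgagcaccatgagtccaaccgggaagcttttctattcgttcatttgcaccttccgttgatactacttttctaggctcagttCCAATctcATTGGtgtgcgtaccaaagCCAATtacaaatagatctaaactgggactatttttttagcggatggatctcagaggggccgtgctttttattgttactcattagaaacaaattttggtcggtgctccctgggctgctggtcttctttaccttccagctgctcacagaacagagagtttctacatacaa

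The starts of COL4A1 and COL4A2 lie 127 bases apart and their windows overlap by 226 bases. The distance is 419 bases for COL4A3 and COL4A4 (overlap 82) and 380 bases for COL4A5 and COL4A6 (overlap 121), taking the entry of COL4A6 that faces COL4A5, of 2 entries. The COL4A1 window holds CCAAT at 1 place and GGGCGG at 2, and the COL4A2 window holds each at 1 place. COL4A5 has CCAAT at 2 places and COL4A6 at 3, and neither holds GGGCGG. COL4A3 has GGGCGG at 2 places, and none of the 3 words is found in the COL4A4 window. G and C make up 76.7% of the COL4A1 window and 77.7% of the COL4A2 window but 49.3% and 43.7% for COL4A5 and COL4A6, beside a median of 58.7% over 35116 promoters. Of the 44 collagen genes 32 had a promoter entry, with 44 entries in all. CCAAT was found in 14 of these 44 entries and in 34.6% of all promoters, GGGCGG in 24 and in 45%, and TATAAA in 8 and in 11.5%. Entries were missing for COL1A1, COL1A2, COL2A1, COL3A1, COL5A2, COL6A1, COL6A5, COL8A1, COL9A3, COL14A1, COL20A1 and COL22A1.

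COL8A1 and COL8A2 are network-forming chains known from the membrane under the corneal endothelium. COL8A1 reached 3.52, 2.37 and 0.80 in 201B7, against -3.50, -1.40 and -1.78 in KhES-1 and -3.35, -3.02 and -3.80 in the H1 pre-cultures in E8 Medium. COL8A2 lay between -3.18 and -1.23 with FGF, and at -3.02, -5.16 and -4.23 without it. COL10A1, a chain of growth plate cartilage, ran from -2.01 to -0.37 with FGF.

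Type VI collagen forms beaded filaments close to the cell surface from the chains of COL6A1, COL6A2 and COL6A3. COL6A1 ran from 3.00 to 4.61 in the undifferentiated cultures with FGF. The 3 cultures of 4 days without FGF lay below that range at 2.23, 1.99 and 2.14. COL6A2 had 0.08, 0.48 and -0.47 in the H1 pre-cultures and -1.39, -1.28 and -1.36 without FGF. COL6A3 was well above background on 18 of 54 arrays and read -0.77 in the differentiated culture.

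Collagens associated with fibrils sit on the surface of other fibres, type IX on those of cartilage and types XII and XIV on type I fibres. COL12A1 spread widely among undifferentiated cultures, with 3.89, 3.39 and 4.41 in MEF-CM and -2.06, -2.02 and -2.51 in the H1 pre-cultures in E8 Medium. Its levels were 0.84, 1.37 and 1.07 in KhES-1, 2.48, 1.58 and 0.45 in 201B7 and -0.49, 0.27 and 0.42 in 253G1. COL9A2 lay between -2.87 and -1.43 with FGF and at 0.07, 0.23 and 0.20 without it. COL9A1, another chain of type IX, overlapped between these cultures, at 0.71, 0.48 and 1.01 without FGF and 0.68, 0.53 and 0.81 with bFGF. COL9A3 read 4.45, 4.47 and 3.77 without FGF, below its bFGF levels of 4.82, 4.66 and 4.87 but overlapping with FGFC, at 4.44, 5.05 and 4.97.

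COL17A1 is the transmembrane collagen of hemidesmosomes, which tie epithelia to the basement membrane. It read -6.31, -6.38 and -5.94 in the H1 pre-cultures, -3.71, -3.72 and -3.49 without FGF, and -0.54 in the differentiated culture. COL13A1, COL23A1 and COL25A1 also span the membrane. COL23A1 had 1.06, 1.37 and 0.31 in the H1 pre-cultures in E8 Medium and -1.93, -1.23 and -1.31 in KhES-1. Of the multiplexins, whose ends release endostatin-like fragments, COL18A1 ran from 6.16 to 7.88 over all 27 cultures. COL15A1 had 2 arrays well above background, both from the differentiated culture (0.37). COL7A1, the chain of anchoring fibrils under epithelia, was at 1.17, 1.53 and 2.40 in MEF-CM and at -1.60, -1.09 and -0.56 in 253G1.

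Removing FGF for 4 days from H1 cells in E8 Medium shows which collagen genes change when the factor is withdrawn. Genes moved in both directions, and the fibre chains of types I, III and V were not among them. Among those that moved were a hemidesmosome chain, a chain of type IX, 2 chains of type VI and other transmembrane chains. Within the COL4A5 and COL4A6 pair COL4A6 rose against bFGF, while its neighbour did not pass the test.

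Against bFGF, 5 collagen genes rose, 8 fell and 31 of 44 did not pass the test at an adjusted p of 0.05 (3 cultures per arm). Over all probes the test called 5.54% higher and 7.19% lower, and 11.4% and 18.2% of collagen genes. At an unadjusted p under 0.05 there were 18 collagen genes. The median difference was -0.02 for the collagen genes and 0.07 for all genes. Fibrillar genes gave 1 rise and 1 fall, network genes 1 and 2, beaded filament genes 0 and 2, genes associated with fibrils 1 and 1, and transmembrane genes 2 and 2.

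COL17A1 averaged -3.64 ± 0.13 (SD, n = 3) without FGF and -6.79 ± 0.17 with bFGF, a limma difference of 3.15 (95% interval 2.77 to 3.53, adjusted p 1.55e-06). The rise was 3.04, 2.93 and 3.48 in the 3 experiments. With bFGF the COL17A1 signal was not well above background, so its change was at least 4.44-fold. Such a bound takes as the lower value, on each array, the higher of the dim probe's own signal and the lowest signal that was well above background. COL9A2 rose from -1.84 ± 0.10 to 0.17 ± 0.08 (n = 3), which was 4.01-fold (limma adjusted p 0.000395), by 1.94, 2.15 and 1.93 in the 3 experiments. COL4A6 rose by 1.46 (interval 0.72 to 2.19, adjusted p 0.0145), with levels of 2.50, 3.20 and 3.33 without FGF and 1.38, 1.38 and 1.89 with bFGF. The groups of COL4A6 did not overlap, and its neighbour COL4A5 differed by 0.04 (adjusted p 0.953). COL13A1 rose by 1.37 (adjusted p 0.0207), with 0.72, -0.91 and -0.38 without FGF and -1.61, -1.44 and -1.62 with bFGF. Experiment 1 gave the largest COL13A1 rise, 2.33, beside 0.53 in experiment 2. COL11A1, the fifth gene called higher, was well above background in neither arm.

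COL23A1 fell from 0.91, 1.03 and 1.15 with bFGF to -0.85, -1.75 and -1.22 without FGF (adjusted p 0.000734, interval of the difference -3.01 to -1.60). The smallest of its 3 falls, -1.77, was in experiment 1. COL8A2 fell from -1.71, -1.66 and -1.62 to -3.02, -5.16 and -4.23 (adjusted p 0.00298). Without FGF it was well above background on 3 of 6 arrays, none of them in experiment 2, so the lower levels and the size of the fall rest in part on signal near background. Its spread without FGF was large, 1.08 (SD, n = 3), next to 0.04 with bFGF. COL6A1 fell from 3.53 ± 0.05 to 2.12 ± 0.13, or 2.66-fold (adjusted p 0.00317), by -1.24, -1.59 and -1.40 in the 3 experiments. COL6A2 fell with a difference of -1.28 (interval -1.91 to -0.66, adjusted p 0.012), and COL6A3, near background in both arms, had -0.96 (adjusted p 0.238). COL4A4 averaged -3.11 ± 0.15 without FGF and -1.72 ± 0.20 with bFGF (limma adjusted p 0.0429, n = 3). COL21A1, associated with fibrils, had -2.02, -3.15 and -2.56 without FGF and -1.53, -1.67 and -1.21 with bFGF (adjusted p 0.0382). With experiment as a block COL4A4 (adjusted p 0.0538) and COL21A1 (0.0551) missed the threshold. COL25A1 gave -1.21 (adjusted p 0.00997), with 2 of 6 arrays well above background without FGF, and COL24A1, a fibrillar chain known from developing bone, was at least 2.48-fold lower (adjusted p 0.0307). After normexp background correction neither passed, with COL25A1 at -0.33 (adjusted p 0.163) and COL24A1 at -0.38 (0.239).

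The type I, III and IV marker chains did not pass this test. COL1A1 differed by -0.21 (interval -1.09 to 0.67, adjusted p 0.786) and COL1A2 by -0.08. COL4A1 differed by 0.19 (interval -0.40 to 0.79, adjusted p 0.697) and COL4A2 by -0.04. COL3A1, near background in both arms, differed by 0.65 (adjusted p 0.489). COL5A1 gave 0.11 and COL5A2 -0.68 (adjusted p 0.069), and among type IX chains COL9A1 gave 0.06 and COL9A3 -0.55 (adjusted p 0.178), with COL9A3 lower in each of the 3 experiments. COL2A1 spread widely, with -2.59, 1.96 and 1.08 without FGF and 0.43, 0.25 and 0.69 with bFGF, an interval of -2.25 to 1.65. Its culture of experiment 1 was low and the others high, so the arms overlapped.

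**Figure D2:**
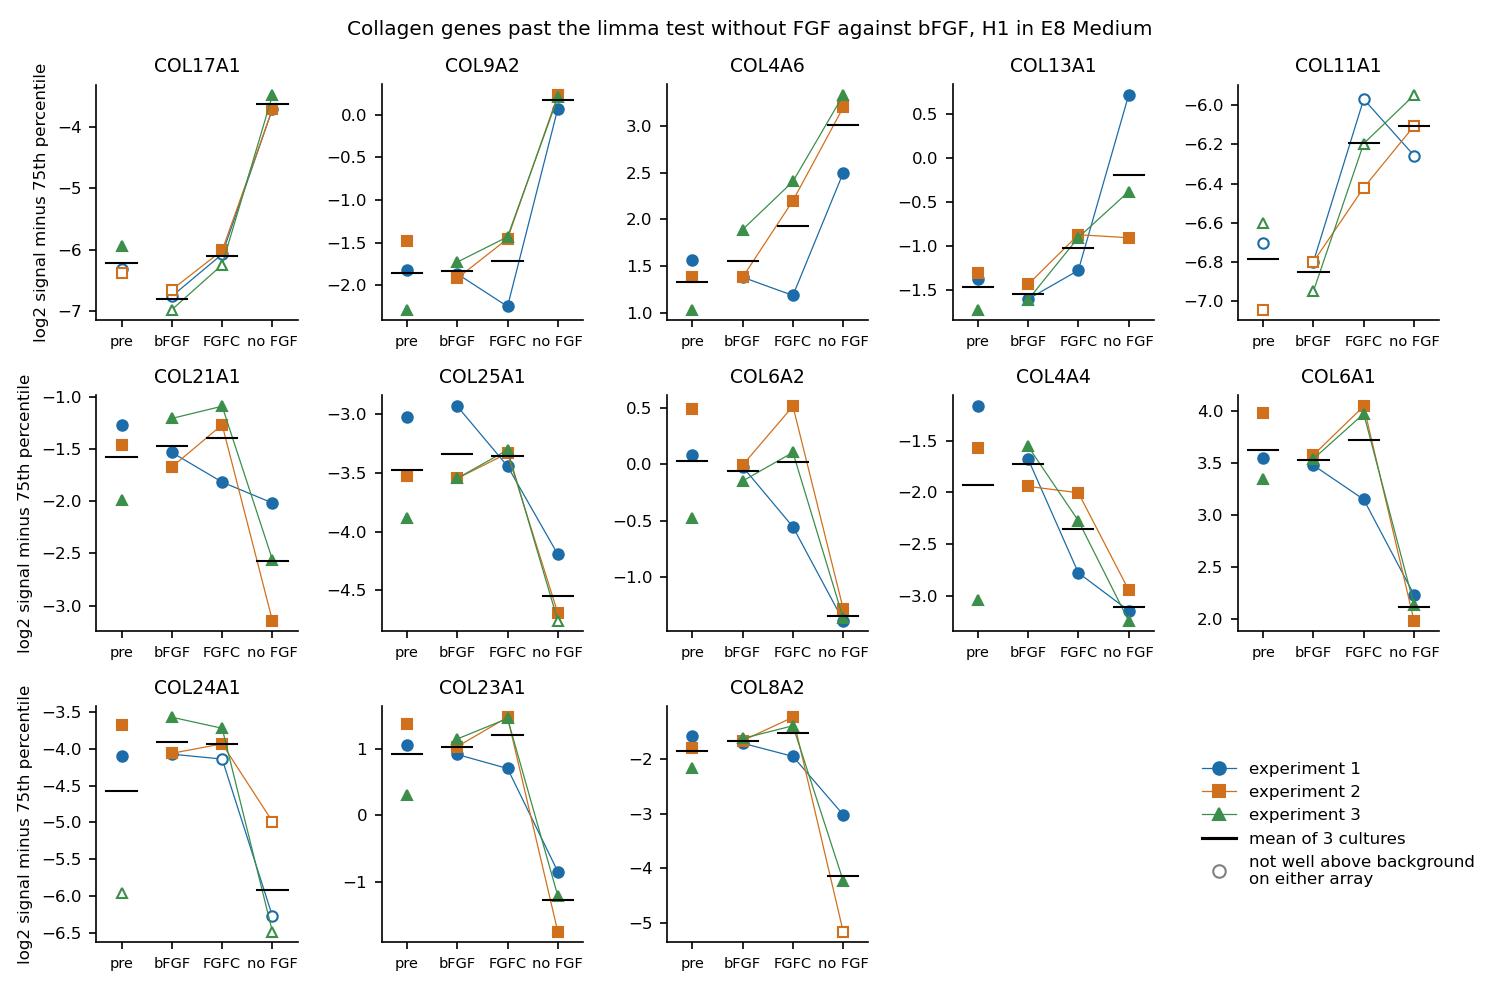
Levels of the 13 collagen genes past the limma test without FGF against bFGF in H1 cells in E8 Medium (log2 signal minus 75th percentile, 1 point per culture, lines join experiments, bars are means of 3 cultures). The cultures without FGF lie at 0.07 to 0.23 for COL9A2 and at 1.99 to 2.23 for COL6A1, apart from those with bFGF or FGFC.

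The call depended on the experiments included. Without experiment 1, 8 collagen genes passed, without experiment 2, 6, and without experiment 3, 3. COL17A1, COL9A2 and COL23A1 had an adjusted p under 0.05 each time. Without experiment 3 the adjusted p was 0.12 for COL8A2, 0.0946 for COL6A1, 0.141 for COL6A2, 0.123 for COL4A6, 0.235 for COL13A1, 0.119 for COL4A4, 0.129 for COL25A1, 0.328 for COL21A1 and 0.125 for COL24A1. Without experiment 2 it was 0.0544 for COL6A1, 0.0605 for COL6A2, 0.19 for COL4A6, 0.166 for COL4A4, 0.122 for COL25A1 and 0.209 for COL21A1. Without experiment 1 COL6A2 had 0.0732, COL13A1 0.088, COL4A4 0.142 and COL24A1 0.212. The arms of experiments 1 and 3 shared a slide, so the differences given for these experiments are within a slide, while in experiment 2 the bFGF culture had a slide apart from the others.

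Against FGFC, 2 collagen genes were higher without FGF and 7 lower, with 16 at an unadjusted p under 0.05, and the probes called were 4.72% and 6.07%. This comparison shares its cultures without FGF with the comparison against bFGF. Of the genes called against bFGF, COL4A6 (1.08, adjusted p 0.0643), COL13A1 (0.83, 0.161), COL4A4 (-0.76, 0.303) and COL11A1 (0.844) did not pass against FGFC. COL17A1 was higher without FGF (adjusted p 7.95e-06), but it was well above background on 1 of 6 FGFC arrays and 0 of 6 bFGF arrays, so the sizes of the differences from the 2 arms were not compared. COL9A2 was 1.88 higher (adjusted p 0.000678). COL23A1 fell by 2.48 (adjusted p 0.000505), COL6A1 by 1.60 (0.00165) and COL8A2, near background on 3 of 6 arrays without FGF, also passed (0.00243). COL6A2 gave -1.36 (adjusted p 0.00981). COL1A1 differed by -0.53 (adjusted p 0.511), COL3A1 by -0.14 (0.925) and COL4A1 by 0.04 (0.958). The count was 9 without experiment 1, 3 without experiment 2 and 3 without experiment 3. COL8A2 then had an adjusted p of 0.057 without experiment 2 and 0.124 without experiment 3, and COL6A1 0.0554 and 0.095.

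Genes that serve collagens were read from lists of their enzymes, partners and receptors. Collagen chains need hydroxylation and glycosylation in the endoplasmic reticulum, and 5 of 22 genes of this list fell against bFGF and 0 rose. The lysyl hydroxylase PLOD2 fell by 1.53 (adjusted p 0.000798), the prolyl hydroxylase subunit P4HA2 by 1.24 (0.036), the retention receptor KDELR3 by 0.94 (0.0151) and the prolyl isomerase FKBP14 by 0.93 (0.00415). In the list of processing, crosslinking and fibril assembly 1 of 23 rose, the crosslinking enzyme LOXL3 (1.27, adjusted p 0.00404). SPARC, which binds collagen, fell by 1.31 (adjusted p 0.00321) and PCOLCE, an enhancer of propeptide cleavage, by 0.77 (0.0291), and LOXL4 was at least 1.39-fold lower (0.034). Of 11 collagen receptors 2 rose and 3 fell. ADGRG1, a receptor for type III collagen, rose by 1.85 (adjusted p 6.13e-05) and DDR1 by 0.64 (0.0294). DDR2 fell by 2.18 (adjusted p 0.01), the integrin chain ITGB1 by 0.77 (0.0471), and GP6 was at least 2.52-fold lower. Of 15 genes of degradation and its inhibitors 3 rose, TIMP4 (2.17), TIMP2 (1.07) and MMP2 (0.83), and 2 fell, MMP14 (-0.95) and MMP9 (-0.90). Against FGFC the rises and falls were 0 and 3, 1 and 2, 1 and 2, and 3 and 1 in these 4 lists. Over 11 settings of the analysis the falls against FGFC ran from 1 to 7, 1 to 4, 0 to 2 and 1 to 2. The falls against bFGF ran from 4 to 7, 2 to 5, 2 to 3 and 1 to 3.

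Markers of cell types known to make collagens moved in the cultures without FGF as well. Of 15 fibroblast markers 5 rose against bFGF and 2 fell, with PDGFRA at 2.86, ACTA2 at 2.74 and FBN1 at 1.84, PRRX1 at least 2.78-fold higher, and PDGFRB at -1.01 and THY1 at -1.70. Of 6 cartilage markers 2 rose, HAPLN1 by 5.80 (adjusted p 1.07e-07) and SOX9 by 1.87, and MATN3 fell by 0.87. Of 6 neural crest markers 3 rose, TFAP2A at least 9.42-fold, PAX3 at least 3.59-fold and NGFR by 0.95, and FOXD3 fell by 3.31. Of 9 primitive endoderm markers LAMB1 rose (1.40), and of 6 endothelial markers KDR fell by 4.17 and TIE1 by 2.03. Of 5 pluripotency markers SOX2 rose by 1.32, and NANOG fell by 1.71 and POU5F1 by 1.08. Against FGFC the rises and falls were 4 and 2 for fibroblast, 2 and 1 for cartilage, 3 and 1 for neural crest, 1 and 0 for primitive endoderm, 0 and 2 for endothelial and 2 and 2 for pluripotency markers. Over 11 settings the rises of fibroblast markers ran from 3 to 6 against bFGF and 2 to 6 against FGFC. The rises of neural crest markers ran from 1 to 3 in both.

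Lists were summed in units of the 75th percentile signal of the array. Cartilage markers ranged from 7.967 to 11.77 without FGF and from 1.378 to 2.403 in H1 cells in E8 Medium with FGF. The HAPLN1 probe gave the most signal of the cartilage list without FGF, at a mean level of 3.04 beside -2.76 with bFGF. ACAN, MATN1 and COMP did not pass the limma test against bFGF. Fibroblast markers gave 62.61, 82.92 and 115.5 without FGF, beside 72.81 to 101 with FGF (median 84.54), with the FBLN1 probe giving the most signal without FGF and the THY1 probe with it. Naming the probe with the most signal says which gene weighs most in the sum and does not rank the genes by RNA. Endoderm markers summed to 23.06 to 32.23 without FGF and 13.01 to 23.36 with it. Pluripotency markers summed to 237.1 to 338.9 without FGF and 310.2 to 543.1 with FGF, with the most signal from the POU5F1 probe. Neural crest markers gave 1.361 to 2.155 beside 2.108 to 3.753, and endothelial markers 3.588 to 4.311 beside 3.154 to 6.587. In the neural crest sum the NGFR probe gave the most signal without FGF and the FOXD3 probe with it. FOXD3 averaged -2.59 without FGF and 0.72 with bFGF, and NGFR 0.01 and -0.95. The part of these cell types in the collagen differences was not tested.

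FGFC against bFGF asks whether the chimeric factor leaves collagen genes at the level that bFGF gives. No collagen gene passed the limma test after 4 days or over the long-term systems. The median of the collagen genes had different signs in the 3 experiments.

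After 4 days, 0 of 44 collagen genes passed the limma test in 3 experiments, as did 0% of all probes, and 2 collagen genes had an unadjusted p under 0.05. These were COL17A1 (p 0.00229, limma) and COL11A1 (p 0.00396, limma). COL11A1 was well above background on 0 of 6 arrays in both arms, and COL17A1 on 1 of 6 with FGFC and 0 of 6 with bFGF, so no size is given and their order between the arms is read from signal near background. COL1A1 differed by 0.32 (interval -0.55 to 1.20), COL4A1 by 0.15 (interval -0.44 to 0.74) and COL3A1 by 0.80 (interval -0.39 to 1.99). In experiment 1, 8 genes were higher with FGFC and 36 lower, and the median was -0.37. Experiments 2 and 3 had 37 higher and 7 lower (median 0.44), and 35 higher and 9 lower (median 0.21). The direction of most collagen genes was thus opposite in experiment 1, while the medians of all probes were -0.02, 0.08 and 0.01. The FGFC arrays had 57.2% and 60% of probes well above background in experiment 1, 76.4% and 77.1% in experiment 2 and 57.1% and 71.3% in experiment 3. The part of this share in the difference was not tested.

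Over the 5 long-term systems, 0 of 44 collagen genes and 0% of all probes passed the limma test, with 1 collagen gene at an unadjusted p under 0.05. That gene was COL25A1, at -0.50 (p 0.00778, limma), with -0.62 for H1 in E8 Medium, -0.61 for MEF-CM, -0.25 for KhES-1 and -0.15 for 201B7. In 253G1 it was well above background on 0 of 2 FGFC arrays and 1 of 2 bFGF arrays. The median difference was -0.15 for the collagen genes and -0.04 for all probes. COL1A1 differed by -0.12 (interval -0.43 to 0.18), from -0.44 in H1 in E8 Medium to 0.24 in 253G1. COL4A1 differed by -0.17 (interval -0.40 to 0.07) and COL3A1, near background, by -0.27. In 3 of the 5 systems the bFGF and FGFC cultures were on different slides, so arm and slide cannot be told apart there, while in 201B7 and 253G1 the arms shared a slide.

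Within single systems, with 1 culture per arm and no test, 17 of 220 differences were at least 2-fold, 5 higher and 12 lower. H1 in E8 Medium had 4 of these (6.82% of probes passed 2-fold there), with COL4A4 at -1.51, and MEF-CM had 4 (4.38% of probes), with COL12A1 at 1.01 and COL9A3 at -1.11. KhES-1 had 0 (3.15% of probes), 201B7 4 (6.16%), among them COL8A1 at -1.56 and COL12A1 at -1.13, and 253G1 5 (6.98%), with COL8A1 at -1.53 and COL4A4 at -1.43. Also among the 4 in H1 in E8 Medium was COL17A1, well above background on both FGFC arrays and on neither bFGF array, and it differed by 0.99 in MEF-CM, -0.11 in KhES-1 and -0.43 in 201B7. After normexp background correction 4 of 220 differences were at least 2-fold, with 0 in H1 in E8 Medium. Of the service and marker lists, 0 genes passed the limma test between FGFC and bFGF at 4 days or in long-term culture.

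**Figure D3:**
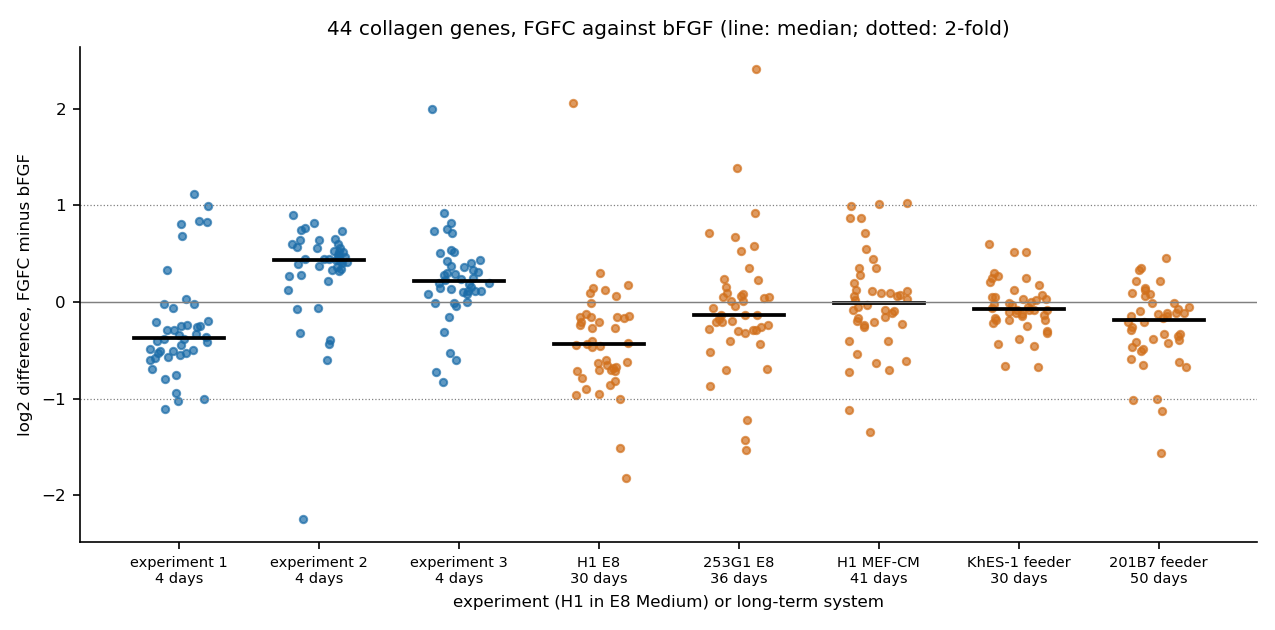
Difference between FGFC and bFGF cultures (log2) for each of the 44 collagen genes in 3 experiments of 4 days and 5 long-term systems, 1 point per gene, with the median as a line and dotted lines at 2-fold. The medians were -0.37, 0.44 and 0.21 in the 3 experiments and -0.44 in H1 in E8 Medium, -0.13 in 253G1, -0.01 in MEF-CM, -0.07 in KhES-1 and -0.18 in 201B7.

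The culture systems differ in medium, feeder cells or line, and the next comparisons ask how collagen genes differ with them. The 4 comparisons share cultures, so their values are given side by side and no gene is counted over them. Each system was given by its pre-culture, bFGF and FGFC cultures (n = 3), and line, medium, dose, days and slide cannot be told apart where they change together.

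In H1 cells, MEF-CM against E8 Medium had 17 collagen genes higher and 8 lower, with 26 at an unadjusted p under 0.05. Over all probes 8.16% were called higher and 21% lower, while 38.6% of collagen genes were higher and 18.2% lower. The share of calls that were higher was 28% over all probes, but 51.5% under quantile scaling, where the collagen genes had 17 higher and 3 lower. The median of all probes was -0.15 here and -0.04 under quantile scaling. Fibrillar genes gave 5 rises and 2 falls, network genes 5 and 1, beaded filament genes 2 and 2 and genes associated with fibrils 3 and 2. Of the called genes, COL3A1 (-1.32), COL6A5, COL6A6 and COL19A1 were not well above background on any array of either group.

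COL12A1 was at 3.89, 3.39 and 4.41 in MEF-CM and at -2.06, -2.68 and -3.50 in E8 Medium, a difference of 6.64 (interval 5.56 to 7.73, limma adjusted p 3.18e-05, n = 3). COL8A1 was 3.74 higher (interval 2.31 to 5.16, adjusted p 0.00189), at -0.02 on average against -3.75. COL5A2 was 2.54 higher (adjusted p 0.000571) and its partner COL5A1 0.69 (adjusted p 0.0529). In both chains of type I collagen the MEF-CM levels lay above those in E8 Medium, with COL1A1 at 3.93 ± 0.20 against 1.58 ± 0.30 (adjusted p 0.000607, limma, n = 3) and COL1A2 higher by 1.26 (0.02). COL4A1 was 1.01 higher (adjusted p 0.00197), COL4A2 0.76 (0.00634), and COL4A3 was at least 2.16-fold higher (0.00151). COL4A4 was 2.48 higher (adjusted p 0.0106), but it spread from -1.17 in the pre-culture to -3.21 with bFGF and -4.71 with FGFC in E8 Medium, so this size depends on the arm. COL9A3 was 2.09 higher (adjusted p 0.00141), COL6A1 0.72 and COL6A2 1.28. Lower in MEF-CM were COL4A6 (-1.11, adjusted p 0.00835), COL23A1 (-1.05, 0.0146), COL2A1 (-1.04, 0.0397) and COL9A1 (-0.84, 0.00343). The type IV genes therefore did not move as a class, since COL4A6 was lower while COL4A1, COL4A2, COL4A3 and COL4A4 were higher.

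Without the bFGF cultures 8 collagen genes passed (7 higher and 1 lower), and without the FGFC cultures 13 (10 and 3). Without the bFGF cultures the adjusted p was 0.0855 for COL4A1, 0.0688 for COL23A1 and 0.25 for COL2A1. Without the FGFC cultures it was 0.0569 for COL4A1, 0.063 for COL23A1 and 0.0759 for COL4A6, and COL2A1 had 0.166 without the pre-cultures. The arrays in MEF-CM had 75.2% to 79.2% of probes well above background and the 6 arrays of H1 in E8 Medium in this comparison 60.1% to 74%, without overlap, and the part of this share in the result was not tested.

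Of the lists, collagen biosynthesis had 5 of 22 genes higher in MEF-CM and 4 lower, with P4HA2 at 1.55 and PLOD2 at 1.09, and FKBP7 at -0.69 and COLGALT1 at -0.64. Processing and assembly had 6 higher and 7 lower (FN1 3.05, LOXL4 2.04, FMOD -1.56, LOXL1 -1.29), and receptors 3 and 1 (ITGB1 1.36, ITGA1 0.86, ADGRG1 -3.16). Degradation had 0 higher and 5 lower, with CTSK at -1.12. Of 15 fibroblast markers 7 were higher, with ACTA2 at 6.17 and VIM at 3.48, and 4 lower. Over 11 settings of the analysis degradation ran from 0 to 1 higher and 1 to 5 lower. Receptors ran from 1 to 3 and 1 to 2, and fibroblast markers from 3 to 7 and 1 to 4. The other markers gave 1 higher and 1 lower for endoderm (AFP 3.42), 1 and 2 for endothelium, 1 and 1 for cartilage (ACAN 1.11, SOX9 -0.93), 0 and 2 for neural crest and 1 and 0 for pluripotency. Fibroblast markers summed to 217.6, 276.4 and 305.2 in MEF-CM, lowest to highest, with the most signal from the VIM probe, against 72.81 to 101 in E8 Medium. Of the 15 fibroblast markers 10 to 11 were well above background in MEF-CM and 6 to 9 in H1 cells in E8 Medium with FGF. LUM of that list and the collagen gene COL3A1 were not well above background in MEF-CM. The part of fibroblast-like cells or RNA in the collagen differences was not tested.

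Between lines in E8 Medium, 253G1 against H1 had 3 collagen genes higher and 2 lower, with 11 at an unadjusted p under 0.05. Over all probes 4.9% were higher and 9.72% lower. The share of higher calls was 33.5% over all probes, 45.7% under quantile scaling and 59.5% under median scaling, where the median of all probes was 0.22, against 0.01 here. COL12A1 was 2.82 higher (interval 1.73 to 3.91, adjusted p 0.0045), a 7.06-fold difference. COL1A1 was 3.73-fold higher (adjusted p 0.00369), with its 3 levels in 253G1 cells above the 3 in H1 cells. COL5A3, a chain of type V, was 0.71 higher (adjusted p 0.037). COL13A1 (-1.29, adjusted p 0.0132) and COL9A1 (-0.91, 0.00548) were lower. COL4A1 differed by -0.29 (adjusted p 0.279).

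No call of this comparison held without the bFGF cultures, where 0 collagen genes passed the limma test and the adjusted p was 0.0736 for COL12A1, 0.0772 for COL1A1, 0.356 for COL5A3, 0.0981 for COL13A1 and 0.0863 for COL9A1. The count was 3 without the pre-cultures, with COL5A3 at 0.0619 and COL13A1 at 0.128, and 2 without the FGFC cultures, with COL1A1 at 0.0584, COL5A3 at 0.122 and COL9A1 at 0.073. It was 16 (3 higher and 13 lower) with all 11 H1 cultures in E8 Medium with FGF. Of the lists, biosynthesis gave 0 and 0, processing 2 higher (LOXL3 1.34, SPARC 0.86), receptors 1 and 1 (ADGRG1 -1.23) and degradation 2 higher (TIMP4 1.48, TIMP1 0.66). Fibroblast markers gave 2 higher (ACTA2 2.62, TAGLN 2.05) and 1 lower, endoderm 1 and 2, endothelium 0 and 1, cartilage 0 and 1, neural crest 0 and 0 and pluripotency 0 and 0. Across 11 settings of the analysis degradation ran from 0 to 3 higher and 0 to 4 lower, and fibroblast markers from 2 to 6 and 0 to 2. Fibroblast markers summed to 114.2, 115.8 and 122.2 in 253G1, with the most signal from the THY1 probe, and their part in the result was not tested.

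On feeder cells, 201B7 iPSCs against KhES-1 ESCs had 14 collagen genes higher and 0 lower by limma, with 20 at an unadjusted p under 0.05, a split that was 7 and 2 under quantile scaling and 5 and 5 under median scaling. Over all probes 27.7% were higher and 11.3% lower, and the share of higher calls was 71%, against 46.7% under quantile and 28.3% under median scaling. The median of all probes was 0.34 here, -0.05 under quantile and -0.09 under median scaling, and the medians of the collagen genes were 0.52, 0.32 and 0.09. A large part of the split thus moved with the scaling.

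COL8A1 was 4.45 higher in 201B7 (interval 3.03 to 5.88, limma adjusted p 0.00106), at 2.23 ± 1.36 against -2.22 ± 1.12 (SD, n = 3). COL8A1 was highest in the pre-culture and lowest in the FGFC culture of 201B7, and the 2 lines did not overlap. COL4A4 was 1.76 higher (adjusted p 0.0412). COL16A1, associated with fibrils, was 1.58 higher (adjusted p 0.00122), but a further probe of COL16A1 gave -0.01 (adjusted p 0.983). COL1A1 was 2.24-fold higher (adjusted p 0.0185) and COL1A2 0.82 (0.0841). COL9A1 was 0.58 higher and COL4A1 0.37 (adjusted p 0.109). COL6A2 was 0.72 higher, but its other probe gave 0.36 (adjusted p 0.205). Of the 14 genes called higher, COL3A1, COL6A5 and COL15A1 were well above background on no array of either line, and COL4A3 on 1 of 6 arrays of 201B7 and 0 of 6 of KhES-1.

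The count was 7 without the pre-cultures (6 higher and 1 lower), 1 without the bFGF cultures and 12 without the FGFC cultures. Without the pre-cultures the adjusted p was 0.0935 for COL4A4 and 0.0556 for COL1A1, and without the bFGF cultures it was 0.201 for COL4A4, 0.0562 for COL16A1 and 0.099 for COL1A1. COL1A1 also missed the threshold under median scaling, at 0.058. The pre-culture arrays of 201B7 had the lowest 75th percentile signals of the series, 182 and 234, and their part in the result was not tested. Of the lists, biosynthesis had 4 higher and 2 lower (P4HA3 at least 3.92-fold, KDELR3 1.18, P3H2 -0.71, P3H3 -0.57). Processing had 14 higher and 2 lower (DCN 9.69, adjusted p 1.49e-06, BMP1 4.78, LOXL3 -1.08, SPARC -0.91), receptors 4 and 0 (DDR2 6.46, ITGB1 1.82) and degradation 2 and 1. Across 11 settings of the analysis biosynthesis ran from 2 to 6 higher and 1 to 11 lower, so its split depends on the setting. Processing ran from 8 to 14 higher and 1 to 3 lower, and degradation from 0 to 2 and 1 to 7. Fibroblast markers gave 5 higher (DCN, and PDGFRA at 4.78) and 1 lower (TAGLN -1.03), endothelium 3 and 0, endoderm 1 and 0, neural crest 1 and 1, cartilage 0 and 0 and pluripotency 0 and 1 (NANOG -0.82). Fibroblast markers summed to 355.6 in the pre-culture of 201B7, 192.8 with bFGF and 111.9 with FGFC, with the most signal from the DCN probe, against 101.4 to 127.5 in KhES-1, where the VIM probe gave the most. Of the 15 fibroblast markers 10 to 11 were well above background in 201B7 and 11 in KhES-1. LUM of that list and the collagen gene COL3A1 were not well above background. The part of fibroblast-like cells or RNA was not tested.

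Feeder cultures against E8 Medium, over both lines each, had 13 collagen genes higher and 13 lower, with 28 at an unadjusted p under 0.05. Over all probes 11.2% were higher and 34.5% lower, and the share of higher calls was 24.6%, against 49.4% under quantile scaling, 34.1% under median scaling and 55.7% after background correction by normexp. The median of all probes was -0.21 here, -0.04 under quantile scaling and 0.09 under normexp. The collagen genes split 11 and 5 under quantile scaling, 16 and 10 under median scaling and 11 and 5 under normexp.

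COL8A1 was 3.39 higher on feeder cells (interval 2.38 to 4.40, adjusted p 0.000321), COL12A1 2.64 (0.000289) and COL7A1 1.29 (0.00559). The COL8A1 difference came mostly from 201B7, with a mean of 2.23 against -2.22 in KhES-1, whose pre-culture at -3.50 lay among the levels in E8 Medium. COL1A1 was 1.16 higher (adjusted p 0.00191), though its 253G1 levels lay among the feeder levels, and COL6A1 was 1.02 higher (0.000209). The smaller rises among partner chains were 0.76 for COL1A2, 0.72 for COL5A2, 0.63 for COL5A1 (1.74 by its other probe, adjusted p 0.00203), 0.49 for COL9A2 and 0.42 for COL6A2. Lower on feeder cells were COL2A1 (-1.98, adjusted p 0.00019), COL23A1 (-1.52, 0.000239) and COL9A1 (-1.05, 0.000122). The 6 feeder levels of COL2A1 lay from -2.58 to -2.03 and the 6 levels in E8 Medium from -1.28 to 0.61, without overlap. COL4A1 differed by 0.32 (adjusted p 0.0597), and COL3A1, near background, was called lower by -0.91 but gave 0.26 under normexp. Also among the genes called lower were COL19A1 and COL6A5, well above background on no array of either group. COL6A3 and COL6A6 were so on no array of the feeder cultures and on 3 and 1 of 12 arrays in E8 Medium. COL4A3 was well above background on 1 of 12 feeder arrays and 0 of 12 in E8 Medium, and COL28A1 on 1 and 3. Without the bFGF cultures 12 collagen genes passed (5 higher and 7 lower), and COL7A1 had an adjusted p of 0.0837.

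These cultures are those of the earlier system comparisons, so the values share their cultures. Biosynthesis had 2 higher and 8 lower on feeder cells (P3H2 1.25, PLOD2 0.64, COLGALT2 -1.02, COLGALT1 -0.73) and processing 7 and 9 (DCN 7.50, BMP1 3.98, FMOD -3.60, LOXL2 -0.95). Receptors gave 2 and 2 (ITGB1 0.70, MRC2 0.59, ADGRG1 -2.02, DDR1 -0.44) and degradation 0 and 8. Fibroblast markers gave 6 and 6 (PDGFRA 3.76, S100A4 -1.69, PDGFRB -1.54), endoderm 3 and 2, endothelium 0 and 4, cartilage 1 and 0, neural crest 0 and 2 and pluripotency 3 and 0. Over 11 settings of the analysis the genes lower ran from 3 to 8 for biosynthesis and 3 to 10 for processing. They ran from 2 to 9 for degradation and 2 to 7 for fibroblast markers. The part of the genes of these lists in the result was not tested.

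**Figure D4:**
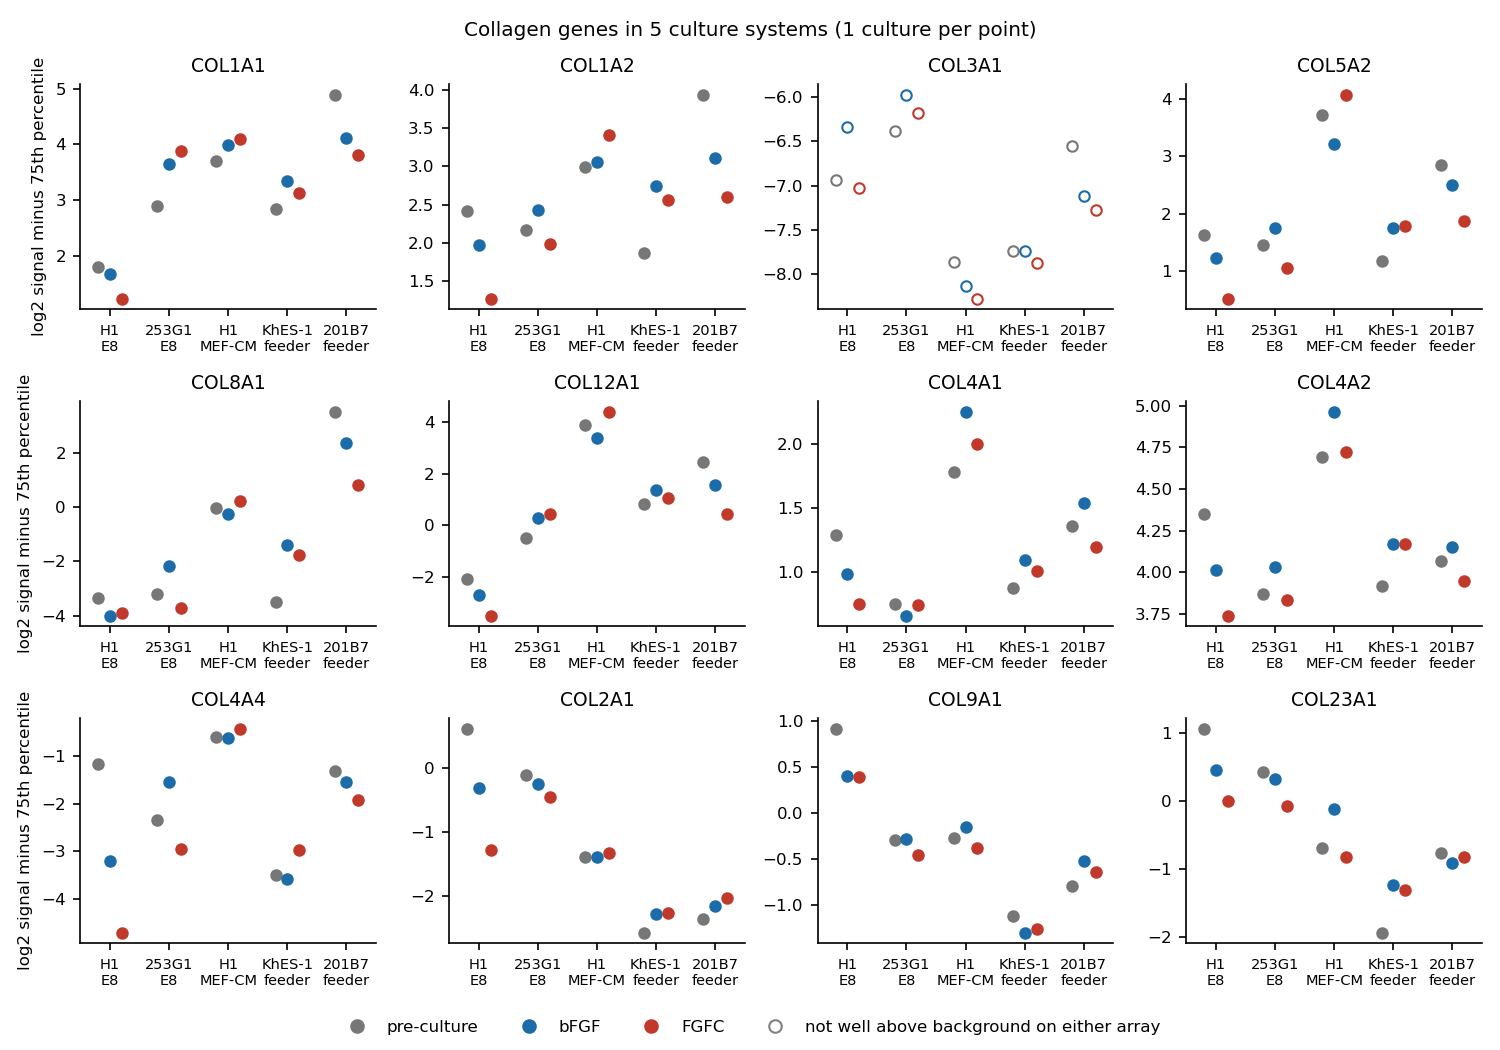
Levels of 12 collagen genes (log2 signal minus 75th percentile) in the pre-culture, bFGF and FGFC cultures of the 5 systems, 1 point per culture, open where neither array was well above background. COL12A1 lies at 3.39 to 4.41 for H1 in MEF-CM and at -3.50 to -2.06 for H1 in E8 Medium, and COL8A1 reaches 3.52 in 201B7.

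The differentiated H1 culture was set beside the 3 H1 pre-cultures in E8 Medium to see which collagen genes mark differentiated cells. It was a single culture on its own slide, so no test was made and a difference of at least 2-fold is given. The differentiated culture had no FGF, while the pre-cultures had 100 ng/mL. Most fibre chains and most type IV and type VI chains lay higher, and few collagen genes lay lower.

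At least 2-fold higher were 28 collagen genes and lower 3, and 13 of 44 lay within 2-fold. Over all probes 14.3% were higher and 15.4% lower, against 63.6% and 6.82% of collagen genes. The median difference was 1.62 for the collagen genes and near 0 (-0.002) for all genes. Fibrillar genes had 9 higher and 0 lower, network genes 7 and 1, beaded filament genes 4 and 0, and genes associated with fibrils 5 and 2. At a 4-fold threshold 18 were higher and 0 lower, among them COL4A3 and COL6A6, whose lower bounds are under 4-fold.

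COL3A1 was at 3.07 against -7.11 ± 0.54 (SD, n = 3) in the pre-cultures, or at least 576-fold higher. COL15A1 (0.37 against -7.12) was at least 88.8-fold higher. COL17A1 was at -0.54, above the pre-cultures, where 1 of 6 arrays was well above background, so no size is given. COL1A1 was 18.7-fold higher, at 6.10 against 1.87 ± 0.25 (SD, n = 3), and COL1A2 13.6-fold. COL5A1 was 21.9-fold higher, and COL5A2 3.37 higher. Of the type VI genes COL6A1 was 1.52 higher and COL6A2 1.35. COL6A3 was at -0.77, above the pre-cultures, where 2 of 6 arrays were well above background, COL6A6 was at least 2.99-fold higher, and COL6A5 lay within 2-fold and near background. Of type IV genes COL4A6 was 3.02 higher, COL4A5 1.85, COL4A2 1.71 and COL4A1 1.46, each well above background. COL4A4 lay the other way at -0.86, within 2-fold and overlapping with the pre-cultures, and COL4A3, well above background on 1 of 2 arrays, was at least 3.36-fold higher. COL9A2 was 3.24 higher, while COL9A3 was lower at -1.09. COL10A1 (-1.36) and COL20A1 (-1.17) were the other genes lower in the differentiated culture. Against single pre-cultures these falls were under 2-fold in 1 case each, with -0.79 for COL9A3, -0.91 for COL10A1 and -0.96 for COL20A1, all against that of experiment 3. Among the rises, COL6A2 (1.38 against 0.48) and COL7A1 (0.83 against 0.10) were under 2-fold against the pre-culture of experiment 2.

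Some of these genes had changed without FGF too, in cultures that the 2 comparisons do not share. Of the 5 collagen genes higher without FGF, 4 were at least 2-fold higher in the differentiated culture, and 1, COL13A1, was within 2-fold. Of the 8 lower without FGF, 5 were higher in the differentiated culture and 3 within 2-fold. These counts stand beside 28 of 44 collagen genes (63.6%) that were at least 2-fold higher in the differentiated culture, so they show nothing particular to the genes that moved without FGF. COL6A1 is among the 5 genes lower without FGF and higher here, at 5.15 in the differentiated culture and 1.99 to 2.23 without FGF.

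In the differentiated culture 9 of 22 biosynthesis genes were at least 2-fold higher and 0 lower, with P4HA2 at 2.59 and FKBP7 at 2.55. Processing had 12 higher (DCN 11.37, LUM at least 1020-fold) and 1 lower (ADAMTS14 -1.24), and receptors 5 higher (ADGRG1 4.30, ITGA11 3.45). Degradation had 7 higher and 2 lower, with FAP at least 144-fold and MMP1 at least 70.7-fold higher, TIMP4 at least 44.4-fold lower and MMP15 at -1.24. Fibroblast markers gave 12 higher and 1 lower (THY1 -2.81), endoderm 6 and 0 (GATA6 at least 110-fold, SOX17 at least 57.9-fold), cartilage 3 and 0 (HAPLN1 6.09, SOX9 2.70), neural crest 4 and 1 (TFAP2B at least 211-fold) and endothelium 1 and 3. Of the pluripotency markers 4 were lower and 0 higher, POU5F1 by -5.30 and DNMT3B by -4.46. Fibroblast markers summed to 298.9, with the most signal from the VIM probe and 15 of 15 well above background, and pluripotency markers to 25.94, with the most from the SOX2 probe. Sums were 13.73 for cartilage, 53.05 for endoderm, 5.846 for neural crest and 1.567 for endothelium, and the part of these cell types in the result was not tested.

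**Figure D5:**
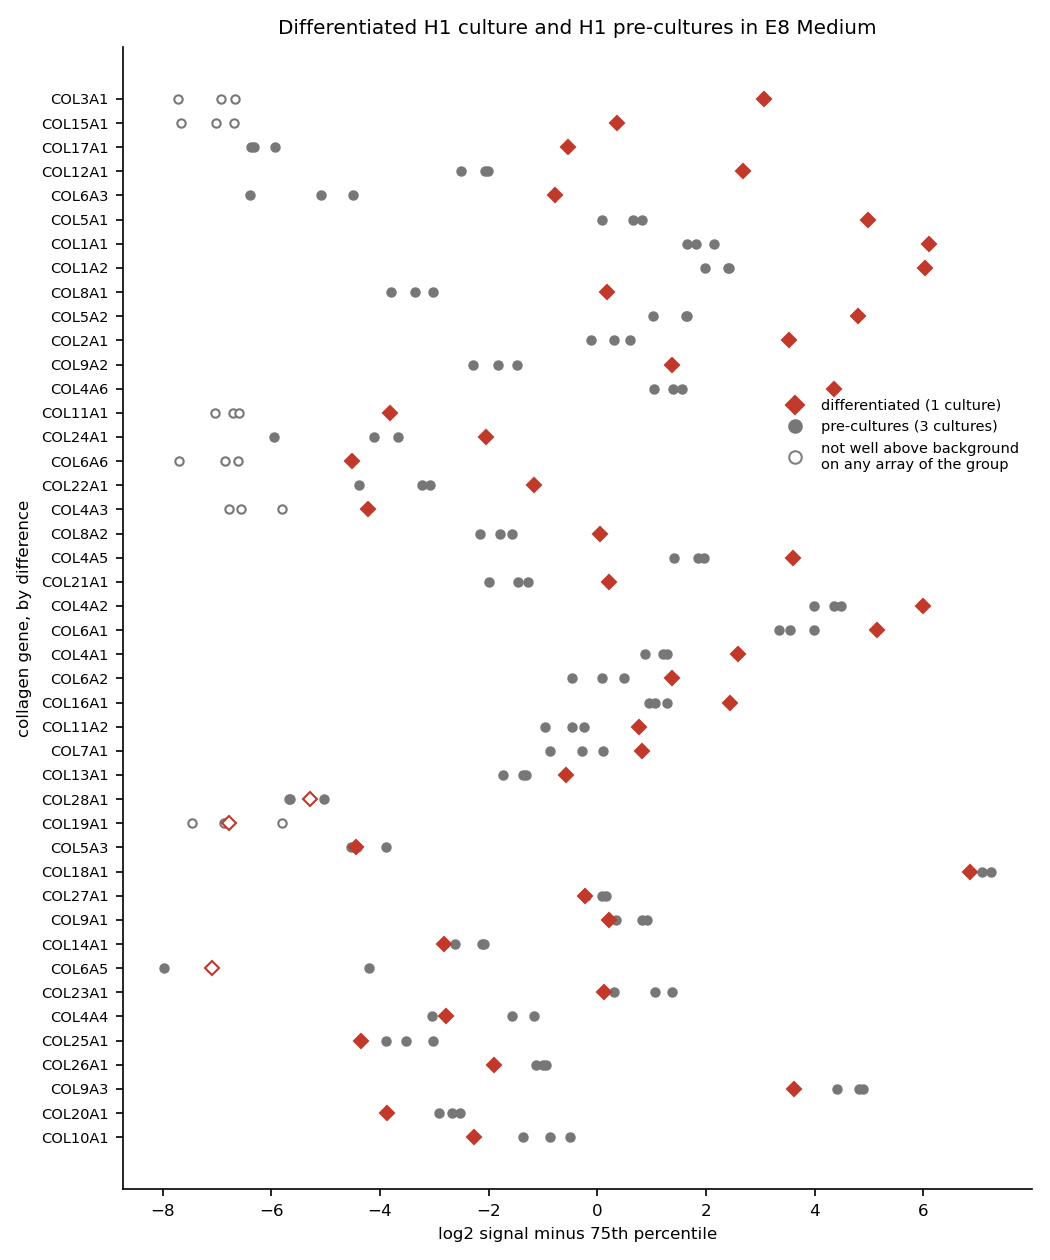
Levels of the 44 collagen genes (log2 signal minus 75th percentile) in the differentiated H1 culture (1 culture, diamonds) and the 3 H1 pre-cultures in E8 Medium (circles), open where no array of the group was well above background. COL3A1 is at 3.07 against -7.72 to -6.67, and COL9A3, COL10A1 and COL20A1 are lower.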

How the data were processed

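Gene expression was measured on 54 Agilent arrays from 27 cultures, 2 arrays per culture. The deposited scanner files hold spot signals in scanner intensity units, with background-subtracted processed signals, yes/no marks of spot quality and percent or count summaries made by the authors' Feature Extraction 10.7.3.1 software. The table of values that was deposited holds processed signal intensity equal to that of the scanner files. From 62976 spots, 4259 were controls and the rest, without outlier spots, were averaged to 42405 probes, of which 25715 carry a RefSeq name for 19720 genes. The log2 processed signal, floored at 1, had the 75th percentile of its array subtracted, and duplicate arrays were averaged. A probe was well above background when at least 0.5 of its spots carried the scanner's mark.

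Tests were two-sided, in limma 3.58.1 (R 4.3.3, package data.table, version 1.17.8) over all probes, Benjamini-Hochberg adjusted, with a threshold of 0.05. The 4-day fit took 12 cultures without a block, the long-term fit 10 cultures with system as block, and the system fit 15 cultures with pre-culture, bFGF or FGFC as a term. Figures used matplotlib 3.10.9 (Python 3.11.15). The calling steps were tested on simulated data. Experiment numbers were taken to mark cultures of a shared experiment. As a check of that pairing, 18 correlations between cultures of the same number, after the group means were removed, ran from -0.162 to 0.516 (median 0.185).

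Named collagen genes were COL1A1, COL3A1, COL4A1, the partner chains of types I, IV, V, VI and IX, and up to 12 genes past the test without FGF against bFGF. In each other comparison they were the 3 largest rises and 3 largest falls with every array of the higher group well above background. From each list up to 4 rises and 4 falls were named without FGF against bFGF, and up to 2 of each elsewhere. Other genes were named after their values were seen, among them COL7A1, COL10A1, COL11A1, COL15A1, COL18A1 and COL19A1. Lists of biosynthesis, processing, receptor and degradation genes and of markers of fibroblasts, primitive endoderm, endothelium, cartilage, neural crest and pluripotent cells came from general knowledge. TWIST2 and TDGF1 had no probe. The members and lists were chosen with earlier results of these data known. Alternatives covered scaling, background correction, dim probes, probe choice, duplicate arrays, blocks, thresholds and left-out cultures. For 5 arrays of experiment 3 the passage differs between labels, and the experiment number was used. The number of arrays, and of the cultures they measure, limits the precision.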

Additional observations from a re-analysis of the deposited data

How the results depend on the processing

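For the named genes, 748 values under an alternative had the side of the threshold, or the size, that was reported. They include changes of sign in genes that passed the test under neither setting. COL4A1 in 201B7 against KhES-1 was such a case, at 0.37 here and -0.05 under median scaling. A further 80 had the direction but missed the threshold, 3 newly passed it and 14 moved in size. Among genes called in either setting 1 reversed, which was COL3A1 on feeder cells against E8 Medium, at 0.26 under normexp background correction. The causes of the differences below were not tested.

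With experiment number as replicate block, 11 collagen genes passed without FGF against bFGF, and COL4A4 (adjusted p 0.0538) and COL21A1 (0.0551) missed the threshold. This pairing changed no other call among the named collagen genes. Leaving out 1 experiment at a time gave 3 to 8 genes without FGF against bFGF and 3 to 9 against FGFC. Normexp moved COL24A1 to -0.38 (adjusted p 0.239) and COL25A1 to -0.33 (0.163).

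Leaving out the pre-cultures, the bFGF cultures or the FGFC cultures gave 8 to 26 genes for MEF-CM against E8 Medium, 0 to 3 for 253G1 against H1, 1 to 12 for 201B7 against KhES-1 and 12 to 26 for feeder cells against E8 Medium. Quantile scaling gave 9 genes for 201B7 against KhES-1 (7 higher and 2 lower) and 16 for feeder cells, and normexp gave 16 for feeder cells. Using all 11 H1 cultures in E8 Medium gave 16 genes for 253G1. For the differentiated culture a 4-fold threshold gave 18 genes, of which COL4A3 and COL6A6 have a lower bound under 4-fold.

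Within the long-term systems the number of differences past the threshold was 4 under normexp, 10 with probes well above background alone, 54 at 1.5-fold and 2 at 4-fold.

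Slide as a random block, chosen after seeing the data for the system and long-term fits, gave 23 genes for MEF-CM, 4 for 253G1, 12 for 201B7 and 24 for feeder cells. Differences of genes near background, such as COL3A1 in undifferentiated cells, are limited by the signal over background.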
